A study of Mus musculus with 4 samples.

Results

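The genes described here encode nuclear receptors of mouse liver, the transcription factors that respond to fatty acids, hormones, vitamins and foreign chemicals. A fixed list named 39 receptors, and a receptor counted as measured when at least 1 probe carried its symbol and no other symbol. That held for 37 receptors, among 19087 genes measured in all, with 115 probes between them. Nr1h2, the oxysterol receptor LXR beta, and Nr3c2, the mineralocorticoid receptor, had no such probe and were not analysed here. Receptors of bile acids, LXR alpha and the clock receptors are outside this list.

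RNA came from whole liver of male C57Bl/6 mice aged 9 months, kept on a reversed light-dark cycle with free access to food. Each of 4 arrays, read in 2 colours, set a mouse whose Wrn protein has a nonfunctional helicase domain, and which had received resveratrol, against an untreated wild-type mouse. Wrn is the RecQ helicase that is lost in the premature ageing disorder Werner syndrome, and resveratrol is a polyphenol made by plants. Each array held another mutant, while 2 wild-type animals each served on 2 arrays: animal 2 on arrays 1 and 3, animal 4 on arrays 2 and 4. Mutant RNA was labelled with Cy5 for arrays 1 and 2, and with Cy3 for the dye-swapped arrays 3 and 4. Genotype and treatment differed together and cannot be told apart. No source used here gives the dose or length of treatment. A ratio of 2 colours holds no level, so neither the tissue label nor which receptors lay above background could be checked. In whole-liver RNA, fewer cells of a type and less RNA per cell cannot be told apart.

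All values are log2 ratios in the deposited orientation, in which positive likely means treated mutant over wild type. The basis for that direction is that the title of the series and the channel order name the animals the same way. No source used here states whether the submitters turned the dye-swapped arrays, so every direction given below depends on arrays 3 and 4 already running the same way as arrays 1 and 2. Over all probes, Pearson's r was 0.19 between arrays 1 and 2 and 0.21 between arrays 3 and 4, and it lay between -0.18 and 0.11 for the array pairs of opposite dyes. With arrays 3 and 4 turned, 0 of 19087 genes passed the threshold. The mean each measured receptor or named gene then takes is given below, for most cell markers as a range.

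Most nuclear receptors have a zinc finger domain that binds DNA and a domain that can bind a small lipophilic ligand. Many bind as a pair with a retinoid X receptor (RXR) to repeats of the half-site AGGTCA, steroid receptors bind as pairs of their own kind, and a few bind alone. Without ligand some recruit corepressors, and ligand exchanges these for coactivators. In liver they set fatty acid oxidation, drug clearance, the handling of sterols and hormones, and hepatocyte identity.

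None of the 37 receptors passed the adjusted threshold of 0.05 in limma's test, and the lowest adjusted p among them was 0.216. Over all genes 47 passed, or 0.246%. At an unadjusted p under 0.05 there were 4 receptors (10.8%), against 6.64% of all genes. All 4 had means below 0, and 3.55% of all genes had such a p with a mean below 0. They were Nr1i3, Nr1i2, Hnf4a and Ppara, the last close to the limit in limma's test, at an unadjusted p of 0.0496. Together with Pparg, these were also the 5 receptors that lay on one side of 0 on all 4 arrays. Pparg was only at -0.03 on array 1. That is 13.5% of the receptors, against 15.9% of all genes with one sign in either direction. All 5 lay below 0, which 8.16% of all genes did, and 0 receptors lay above 0 on all 4 arrays. The median receptor had a mean of -0.11, against -0.0046 for all genes, and 23 of 37 means were below 0, against 50.7% of all genes.

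**Figure D1:**
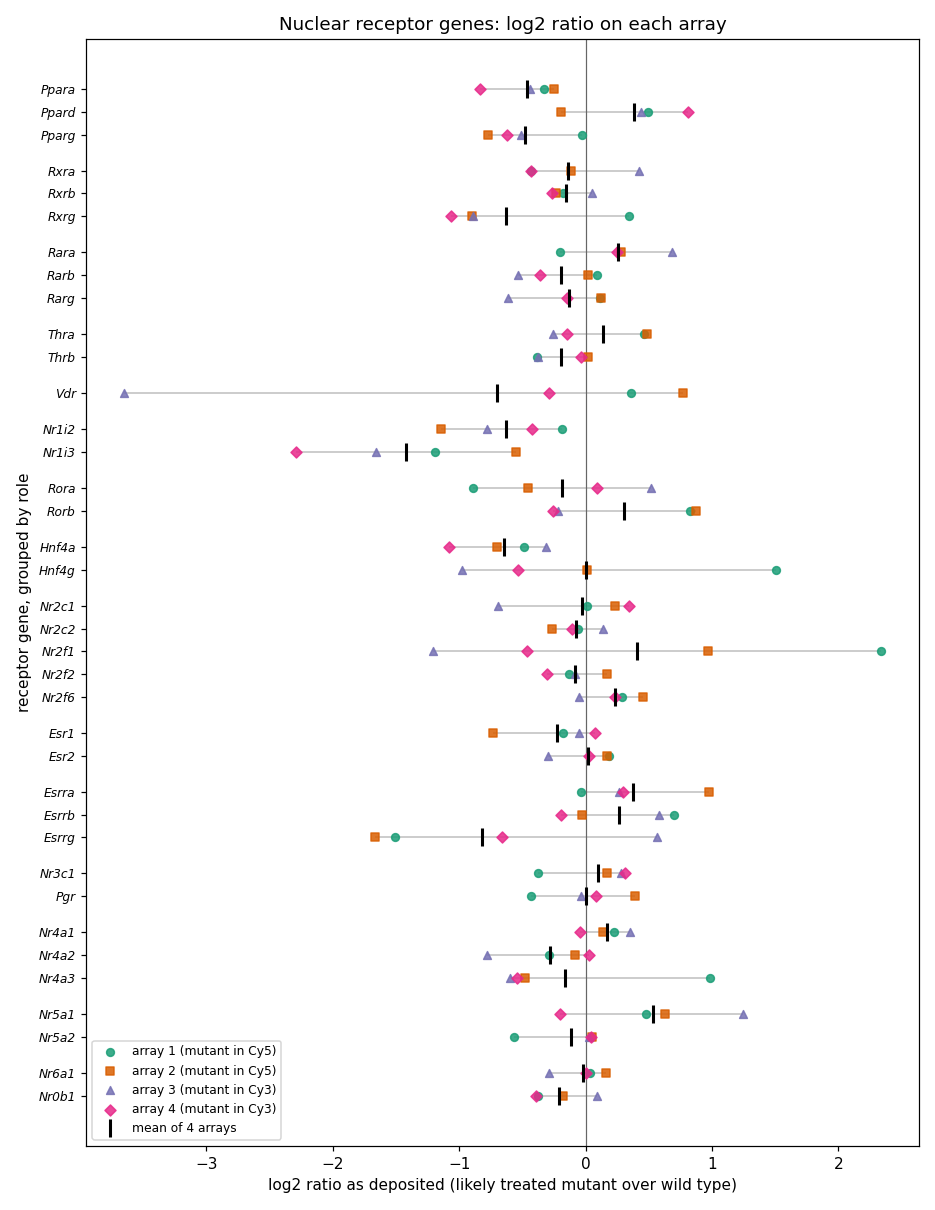
Log2 ratio of each measured receptor gene (rows, grouped by role) on each of the 4 arrays (coloured symbols), with the mean as a black bar and a grey line from the lowest to the highest array. Nr1i3, Nr1i2, Hnf4a, Ppara and Pparg lie left of 0 on every array, and Vdr and Nr2f1 span the widest ranges.

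Nr1i3 encodes the constitutive androstane receptor CAR, which with its relative PXR switches on cytochromes P450 and transporters when foreign chemicals reach the liver. It had the lowest mean of all 37 receptors. Its 1 probe gave -1.19, -0.55, -1.66 and -2.29 on arrays 1 to 4. The mean was -1.42 ± 0.74 (SD, n = 4 arrays), a 2.68-fold lower ratio with a 95% interval from 1.63-fold to 4.42-fold lower, and limma's adjusted p was 0.216. Only 0.419% of all genes had a mean as low. The gap was wider on the arrays with the mutant in Cy3, whose mean was -1.98, than on those with the mutant in Cy5, at -0.87. The means by wild-type animal were both -1.42. With a random block for the wild-type animal, the adjusted p of Nr1i3 was 0.0406, in a fit that called 1.02% of all genes. That fit used a consensus correlation of -0.367 between arrays sharing an animal, and those arrays also differ in dye. A negative correlation makes a mean look more precise, so that fit was not a stricter test than the fit without a block. With arrays 3 and 4 turned, the mean of Nr1i3 was 0.55 and its adjusted p was 0.809.

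Nr1i2 encodes the pregnane X receptor PXR, which responds to many drugs and to steroids. Its 1 probe read -0.18, -1.14, -0.78 and -0.42 on arrays 1 to 4, with a mean of -0.63 ± 0.42 and an adjusted p of 0.648. All 4 arrays were below 0, and the range of the arrays of Nr1i2 overlapped that of Nr1i3. With arrays 3 and 4 turned its mean was -0.03.

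The bases before the annotated starts of Nr1i3 (gene at chr1:171213934-171218845, GRCm38.p6) and Nr1i2 (gene at chr16:38248349-38294849) are shown because these are the 2 xenobiotic receptors and both lay below 0 throughout. Each run holds the 250 bases before 1 transcript start of RefSeq's GRCm38.p6 annotation, read along the gene. That start can lie inside the gene's span, which covers all its annotated transcripts, so a run may overlap the span. Capitals would mark AGGTCA, CAAAGTCCA (a core of HNF4 sites) or GTTAAT (a half-site of the liver factor HNF1) on either strand, and neither run holds any of the 3.
Nr1i3, chr1:171213720-171213969, plus strand: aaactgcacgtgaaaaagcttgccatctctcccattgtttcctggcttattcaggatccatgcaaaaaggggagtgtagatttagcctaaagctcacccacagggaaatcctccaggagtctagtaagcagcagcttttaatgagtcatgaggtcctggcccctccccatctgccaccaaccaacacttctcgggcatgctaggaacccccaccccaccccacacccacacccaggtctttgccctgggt
Nr1i2, chr16:38294825-38295074, minus strand: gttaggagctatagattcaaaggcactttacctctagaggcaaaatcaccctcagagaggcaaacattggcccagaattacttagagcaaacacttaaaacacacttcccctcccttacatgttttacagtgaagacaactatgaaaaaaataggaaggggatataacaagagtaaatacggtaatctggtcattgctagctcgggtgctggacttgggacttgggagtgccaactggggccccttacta

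Hnf4a encodes HNF4 alpha, an orphan receptor that holds hepatocytes in their differentiated state. It had values of -0.48, -0.70, -0.31 and -1.08 on arrays 1 to 4. The mean was -0.65 ± 0.33 (SD, n = 4 arrays), or 1.56-fold lower, with a 95% interval of -1.13 to -0.16 and an adjusted p of 0.562. All 4 arrays were below 0, and its 3 probes had means between -0.69 and -0.56. The mean was -0.59 on arrays with the mutant in Cy5 and -0.70 on those with the mutant in Cy3, and it was 0.05 with arrays 3 and 4 turned. Its relative Hnf4g, known mainly from gut and kidney, had no common direction, at 1.51, 0.01, -0.98 and -0.53.

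Ppara encodes PPAR alpha, the fatty acid sensor that switches on fatty acid oxidation in fasting. It read -0.33, -0.25, -0.44 and -0.84 on arrays 1 to 4, with a mean of -0.46 ± 0.26 and an adjusted p of 0.75. Pparg, which encodes the adipocyte regulator PPAR gamma and is low in normal hepatocytes, read -0.03, -0.77, -0.51 and -0.62, with a mean of -0.48 ± 0.32 and an adjusted p of 0.752. Array 1 stood close to 0 for Pparg, and the lowest array of Ppara was array 4. Most Pparg probes were above 0 on array 1, and with the median over probes Pparg no longer had one sign on all arrays. Ppard, the broadly expressed PPAR delta, had a mean of 0.39 ± 0.42 and was below 0 on array 2 alone. With arrays 3 and 4 turned, the means were 0.18 for Ppara, 0.08 for Pparg and -0.24 for Ppard.

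The starts of Hnf4a (gene at chr2:163506811-163572907) and Ppara (gene at chr15:85734910-85806851) are shown in the same way, since both are hepatocyte receptors with all arrays below 0. For Hnf4a the downstream of its 2 annotated starts is given, the one known as P1 and used in adult liver. The capitals in Hnf4a are 2 copies of GTTAAT on the opposite strand, 1 base apart.
Hnf4a, chr2:163546905-163547154, plus strand: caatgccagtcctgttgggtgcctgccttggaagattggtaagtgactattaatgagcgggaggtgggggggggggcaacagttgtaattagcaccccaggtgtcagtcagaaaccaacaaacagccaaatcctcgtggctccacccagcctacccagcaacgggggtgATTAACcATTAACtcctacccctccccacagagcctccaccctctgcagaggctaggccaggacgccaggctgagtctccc
Ppara, chr15:85735526-85735775, plus strand: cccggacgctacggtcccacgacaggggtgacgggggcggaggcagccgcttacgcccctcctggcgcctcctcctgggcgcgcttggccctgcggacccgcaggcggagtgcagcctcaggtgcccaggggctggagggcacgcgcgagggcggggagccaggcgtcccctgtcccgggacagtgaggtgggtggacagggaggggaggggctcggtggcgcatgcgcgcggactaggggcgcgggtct

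Over 53 starts of 33 of the measured receptors, GTTAAT was found before 7.55% and AGGTCA before 17.0%. Starts on chromosome 18, where Nr3c1 lies, were left out of the 53, with no such step for the starts of all genes. The shares over all 32851 listed starts were 6.43% and 14.0%. The core CAAAGTCCA was found before 0 of the 53 and 0.384% of all, and 2 copies of AGGTCA 1 base apart before 0 of the 53 and 0.0335% of all. GGGCGG, the GC box, was found before 47.2% of the 53 and 32.7% of all. These are matches of letters in a short window, given as a description.

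Receptors with many probes show how far the probes of 1 gene differ on a single array. Of the 37 receptors, 13 had 1 probe and 24 had 2 or more, and in 12 of these 24 the probe means fell on both sides of 0. The 10 probes of Ppara all had means below 0, from -0.66 to -0.22, and so did the 10 probes of Pparg, from -0.65 to -0.13. The SD over probes of one array, averaged over the arrays, was 0.28 for Ppara and 0.36 for Pparg. They ranked 14 and 25 from the tightest of 214 genes with 10 or more probes, for which the median was 0.65. Rarb, with 11 probes, stood at 0.88 and ranked 198, with probe means from -0.61 to 0.44. The 11 probes of Esr1 ranged in mean from -0.84 to 0.35, and the 10 probes of Esr2 from -0.26 to 0.47. No source used here says whether the probes of a gene overlap in sequence.

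**Figure D2:**
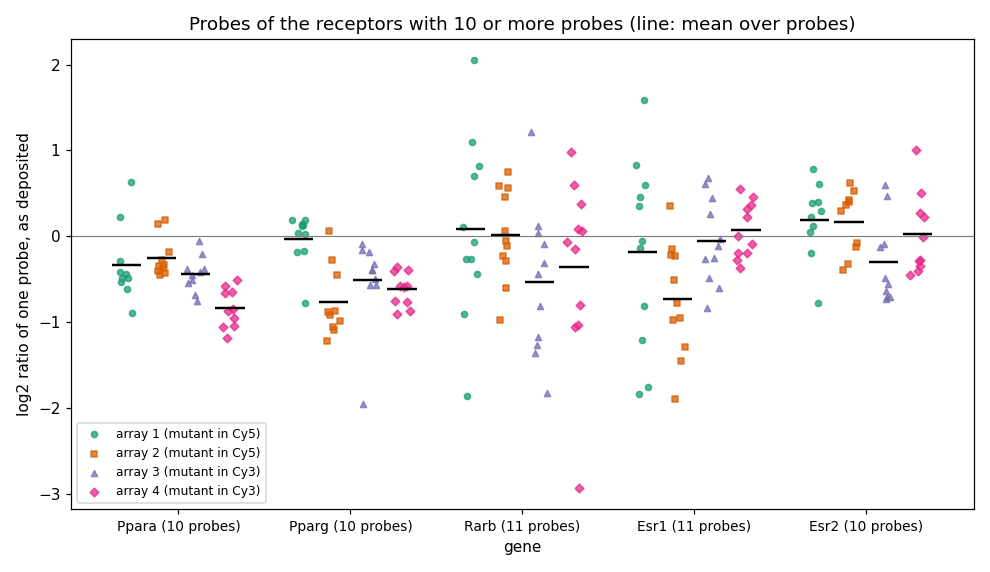
Log2 ratio of every probe (points) on each array (colours) for the 5 receptors with 10 or more probes, with the mean over probes as a black line. The probes of Ppara and Pparg lie close together and mostly below 0, except that most Pparg probes lie just above 0 on array 1. Those of Rarb spread on both sides of 0 on every array.

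The RXRs are the shared partners of many of these receptors. Rxra, the main form in hepatocytes, read -0.43, -0.12, 0.43 and -0.43, with a mean of -0.14 ± 0.40. Rxrb had a mean of -0.16 ± 0.14 and stood at 0.05 on array 3 and below 0 on the others. Rxrg, a form known mainly from muscle and brain, had a mean of -0.63 ± 0.65, with 0.35 on array 1 and -1.07 to -0.89 on arrays 2 to 4. The 95% interval for Rxra, from -0.66 to 0.39, leaves room for changes of either sign. Turned, the means were -0.14 for Rxra, -0.05 for Rxrb and 0.35 for Rxrg.

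Retinoic acid receptors bind the acid form of vitamin A. Rara had a mean of 0.25 ± 0.36 and was below 0 on array 1 alone. Rarb, at -0.20 ± 0.30, and Rarg, at -0.13 ± 0.34, were both above 0 on arrays 1 and 2 and below 0 on arrays 3 and 4. Thra and Thrb encode the thyroid hormone receptors, of which beta is the main hepatocyte form. Thra read 0.46 and 0.49 on arrays 1 and 2 and -0.26 and -0.15 on arrays 3 and 4, and Thrb had a mean of -0.19 ± 0.22 with 0.02 as its one value above 0. Vdr, the vitamin D receptor, which is low in hepatocytes, spanned 0.36, 0.77, -3.65 and -0.29 on its 1 probe. Its mean was -0.70 ± 2.01, and without array 3 it was 0.28. None of these receptors had an unadjusted p under 0.05. Turning arrays 3 and 4 gave means of -0.21 for Rara, 0.25 for Rarb, 0.25 for Rarg, 0.34 for Thra, 0.01 for Thrb and 1.27 for Vdr.

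Several receptors changed sign with the dye, and the arrays of the 2 dye orders also held different mutants. Values were on one side of 0 on arrays 1 and 2 and on the other side on arrays 3 and 4 for 8 of 37 receptors (21.6%), against 17.4% of all genes. These were Rarb, Rarg, Thra, Vdr, Rora, Rorb, Hnf4g and Nr2f1. Vdr and Nr2f1 had the widest splits. Nr2f1, which encodes the orphan receptor COUP-TF1, stood at 2.33 and 0.97 with the mutant in Cy5 and -1.21 and -0.47 with the mutant in Cy3. Rora, a constitutively active receptor of metabolism and the clock, went the other way, at -0.89 and -0.45 and then 0.52 and 0.09. Its relative Rorb, known from brain and retina, read 0.82, 0.88, -0.22 and -0.26. In a fit with a dye coefficient, 6 receptors (16.2%) had a dye term at an unadjusted p under 0.05, against 8.82% of all genes, and 0 genes passed after adjustment. They were Nr2f1, Rorb, Esrrg, Hnf4g, Nr1i3 and Rora.

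With arrays 3 and 4 turned, the receptors at an unadjusted p under 0.05 were 4 others, in a fit where 7.95% of all genes had such a p. They were Nr2f1 with a mean of 1.24, Hnf4g at 0.76, Rorb at 0.54 and Rora at -0.49, and each had an adjusted p of 0.622. Hnf4g, Nr2f1 and Rorb are known mainly outside hepatocytes. A difference between mutant and wild type and an effect of the dyes cannot be told apart for these receptors without the orientation of the arrays. Even with it, an effect of the dyes could not be told apart from differences between mutants, since each dye order held different mutants.

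**Figure D3:**
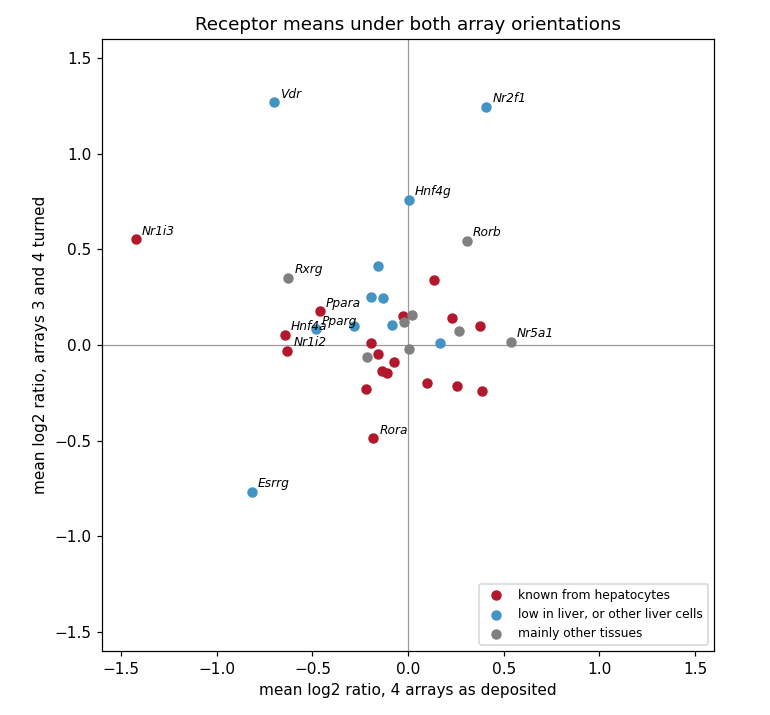
Mean log2 ratio of each receptor over the 4 arrays as deposited (horizontal) against the mean with arrays 3 and 4 turned (vertical), coloured by where the receptor is known to be expressed. Nr1i3 lies far left, Nr2f1 and Vdr lie high, and Esrrg, like Rora, Esr1 and some others, is below 0 in both.

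The remaining orphan receptors of the NR2 group were close to 0. Nr2c1 and Nr2c2, the testicular receptors TR2 and TR4, had means of -0.03 ± 0.46 and -0.07 ± 0.16. Nr2f2, which encodes COUP-TFII of endothelial and stromal cells, was at -0.09 ± 0.20. Nr2f6, a repressor related to it, was at 0.23 ± 0.21 and above 0 on 3 of 4 arrays. Turning arrays 3 and 4 gave 0.15 for Nr2c1, -0.09 for Nr2c2, 0.11 for Nr2f2 and 0.14 for Nr2f6.

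Esr1 encodes estrogen receptor alpha, the main estrogen receptor of liver. It read -0.18, -0.73, -0.05 and 0.07, with a mean of -0.22 ± 0.36, and Esr2 had a mean of 0.02 ± 0.23. The estrogen-related receptors bind no known natural hormone and drive mitochondrial genes with the coactivator PGC-1 alpha. Esrra had a mean of 0.38 ± 0.43 and was above 0 on 3 of 4 arrays, and Esrrb had a mean of 0.27 ± 0.44. Esrrg read -1.51, -1.66, 0.56 and -0.66, with a mean of -0.82 ± 1.02 and an adjusted p of 0.799. Array 3 went against the other arrays in Esrrg, and both of its probes showed this. Its mean was -0.77 with arrays 3 and 4 turned, when Esr1 stood at -0.23, Esr2 at 0.16, Esrra at 0.10 and Esrrb at 0.07.

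The glucocorticoid receptor gene Nr3c1, whose product drives glucose production and dampens inflammation, read -0.37, 0.17, 0.28 and 0.31 on arrays 1 to 4. Its mean was 0.10 ± 0.32, with a 95% interval of -0.39 to 0.58. The progesterone receptor gene Pgr had a mean of 0.0026 ± 0.34. The NR4A receptors are induced within minutes to hours by many stimuli. Nr4a1 was at 0.17 ± 0.17, Nr4a2 at -0.28 ± 0.36 and Nr4a3 at -0.16 ± 0.76, the last with 0.98 on array 1 and -0.59 to -0.48 on the others. Turning arrays 3 and 4 gave -0.20 for Nr3c1, -0.02 for Pgr, 0.01 for Nr4a1, 0.10 for Nr4a2 and 0.41 for Nr4a3.

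Nr5a2 encodes LRH-1, which acts in bile acid and glucose metabolism of hepatocytes. It had -0.57 on array 1 and 0.02 to 0.05 on arrays 2 to 4, with a mean of -0.11 ± 0.30. Nr5a1, the steroidogenic factor SF-1 of adrenal and gonad, had the highest mean of the 37 receptors, at 0.54 ± 0.60, but its 2 probes had means of 0.20 and 0.88 and array 4 was below 0. The probe with the higher mean read 2.77 on array 3, and without array 3 the mean of Nr5a1 was 0.30. That was below Nr2f1 at 0.95, Rorb at 0.48, Esrra at 0.41, Ppard at 0.37, Hnf4g at 0.33 and Nr2f6 at 0.32. Nr0b1, the repressor DAX-1 that works with SF-1, was at -0.21 ± 0.23. The germ cell receptor Nr6a1 was at -0.02 ± 0.19. Turning arrays 3 and 4 gave -0.15 for Nr5a2, 0.02 for Nr5a1, -0.06 for Nr0b1 and 0.12 for Nr6a1.

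Receptors were also set in 3 classes by where they are known to be expressed. Of 18 measured hepatocyte receptors, 12 had means below 0 and 4 lay below 0 on all arrays. The 11 that are low in liver or belong to other liver cells had 8 means below 0, and 1 of them, Pparg, was below 0 on all arrays. The 8 known mainly from other tissues had 3 means below 0, and 0 had one sign on all arrays. Over all genes, 50.7% of means were below 0, 8.16% of genes lay below 0 on all arrays and 15.9% had one sign. Differences between the classes were not tested. The median SDs over the arrays in these classes were 0.36, 0.36 and 0.39.

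Coregulators carry the receptors' effect to the transcription machinery. Of 10 coactivator genes measured, 0 passed the threshold, with a median mean of 0.04. Against 6.64% of all genes, 1 of the 10 had an unadjusted p under 0.05 in limma's test. That gene was Ppargc1a, which encodes PGC-1 alpha, the coactivator of PPAR alpha, HNF4 alpha and the estrogen-related receptors. It read -0.87, -1.48, -1.25 and -0.31, with a mean of -0.98 ± 0.51 and an adjusted p of 0.347. Of 6 corepressor genes measured, 0 passed and the median was -0.21. Tbl1xr1, a subunit of the corepressor complex with HDAC3, read -1.40, -0.78, -0.57 and -0.97, with an adjusted p of 0.259, and Lcor had a mean of -0.32 ± 0.40. The turned means were -0.20 for Ppargc1a, -0.16 for Tbl1xr1 and -0.28 for Lcor.

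Of 7 genes for enzymes that make or remove ligands, 0 passed, and the median was 0.32. Rdh16, a retinol dehydrogenase, was below 0 on all arrays at -0.92, -1.66, -1.64 and -2.05, with a mean of -1.57 ± 0.47 and an adjusted p of 0.0826. Cyp2r1, a vitamin D 25-hydroxylase, was above 0 on all arrays, with a mean of 0.90 ± 0.59 and an adjusted p of 0.495. The turned means were 0.28 for Rdh16 and -0.28 for Cyp2r1.

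Known target genes of these receptors were read from the same arrays, in lists chosen with earlier results of these data known. The 14 measured PPAR alpha targets had a median of -2.17, against -0.0046 for all genes. All 14 means were below 0, and 10 of the 14 genes lay below 0 on all arrays. In limma's test 13 had an unadjusted p under 0.05, and 6 passed the adjusted threshold. Over all genes, 8.16% lay below 0 on all arrays, and 3.55% had an unadjusted p under 0.05 with a mean below 0. The adjusted threshold was passed with a mean below 0 by 32 of 19087 genes. Among those 6, the largest falls were in Cyp4a14 at -5.70, Cyp4a10 at -4.23, Ehhadh at -3.64 and Angptl4 at -2.80, while Ppara itself stood at -0.46. Acot1, named after its values were seen, had a mean of -3.44 but read 1.08 on array 1 and did not pass. Fabp1, also named after its values were seen, had a mean of -0.28, higher than that of Ppara, and a turned mean of -0.30. Turned, the means were 1.53 for Cyp4a14, 0.85 for Cyp4a10, 0.33 for Ehhadh, 0.09 for Angptl4 and 1.47 for Acot1. The count of 6 became 4 without array 1, 0 without array 2, 1 without array 3 and 0 without array 4, and 0 with arrays 3 and 4 turned. Of 8 PPAR gamma targets, 2 passed, the lipid droplet genes Cidec at -2.83 and Plin4 at -2.02, and the median was -0.20. Both are also lipid storage genes of hepatocytes and adipocytes. Without arrays 1 to 4 in turn that count was 1, 0, 0 and 0. The turned means were 0.60 for Cidec and -0.12 for Plin4.

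Among 10 CAR and PXR targets, 0 passed, the median was -0.67, and 7 had an unadjusted p under 0.05, 5 of them lower and 2 higher. Over all genes, 6.64% had such a p in limma's test, and 3.55% had it with a mean below 0. Cyp2b10, the classical CAR target, read -0.91, -2.75, -0.37 and -2.08, with a mean of -1.53 ± 1.09. Alas1, the first enzyme of heme synthesis, read -1.73, -1.77, -2.82 and -1.07, with an adjusted p of 0.101. All 4 arrays of both genes were below 0, and their turned means were -0.30 for Cyp2b10 and 0.09 for Alas1. The lowest adjusted p of the list, 0.0972, was that of Gstm3, a glutathione transferase gene, which was above 0 on all arrays with a mean of 1.29 ± 0.34. Ces2a, a carboxylesterase gene, was above 0 on all arrays too, at 0.87 ± 0.37. Gstm3 and Ces2a are named after their values were seen, and their turned means were -0.04 and -0.12. With a random block for the wild-type animal, 3 of these 10 targets passed.

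The HNF4 alpha targets were balanced around 0, with a median of 0.05 over 10 measured genes, 5 of them below 0 and 0 past the threshold. The thyroid hormone carrier gene Ttr had a mean of 0.97 ± 0.65, and Mttp, which loads lipid onto apolipoprotein B, had -1.32 ± 1.15 with -3.04 on array 3. Of 8 thyroid hormone targets 0 passed and the median was -0.11. Thrsp, a regulator of fat synthesis, was at 3.14 ± 1.62 with 0.82 on array 1 and 3.23 to 4.25 on the others, and Klf9 was at -0.79 ± 0.49. Of 7 retinoic acid targets 0 passed and the median was -0.10, with the retinoic acid hydroxylase Cyp26b1 at -1.68 ± 1.00 and the retinol transporter Stra6 at 0.59 ± 0.44. Turned, the means were -0.51 for Ttr, 0.63 for Mttp, -0.60 for Thrsp, -0.40 for Klf9, -0.25 for Cyp26b1 and -0.32 for Stra6.

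Of 9 glucocorticoid targets 0 passed and the median was -0.17. Fkbp5 and Pck1 were below 0 on all arrays, Fkbp5 at -1.27 ± 0.43 (adjusted p = 0.128 by limma) and Pck1, the gluconeogenic enzyme, at -1.54 ± 0.36 (adjusted p = 0.0687), beside 0.10 for the receptor gene Nr3c1. Of 8 targets of the estrogen-related receptors 1 passed, the acyl-CoA dehydrogenase gene Acadm at -1.81 ± 0.31, which is also a PPAR alpha target, and the median was -0.07. Without any one array Acadm no longer passed. Turned, the means were -0.16 for Fkbp5, -0.27 for Pck1 and 0.24 for Acadm.

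**Figure D4:**
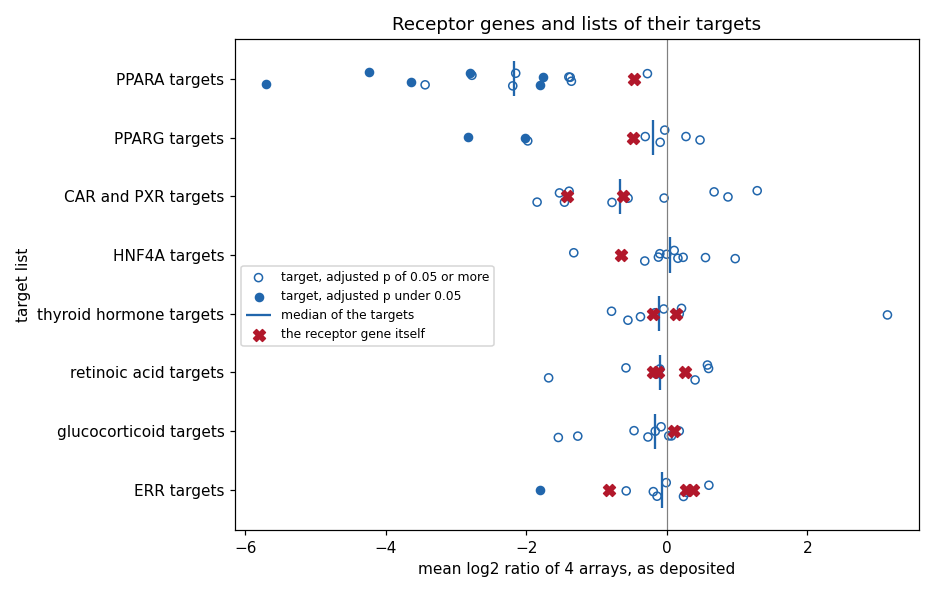
Mean log2 ratio over 4 arrays, as deposited, of the genes in 8 target lists (circles, filled where limma's adjusted p was under 0.05), with each list's median as a blue line and the receptor gene or genes as red crosses. Most PPAR alpha targets lie far left of their receptor gene, but Fabp1 lies to its right. The HNF4 alpha targets scatter around 0 while Hnf4a stands at -0.65.

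Markers of the cells that could carry these receptors were measured on the same arrays. Hepatocyte markers had a list mean above 0 on every array, from 0.31 to 0.80 (4 measured, with Ass1 at 1.19 and Ttr at 0.97). The other hepatocyte markers did not share this, with Apoa1 at -0.10 and Alb at 0.01. Alb read 0.86, 0.81, -0.75 and -0.89 on arrays 1 to 4. Kupffer cell markers ranged from -0.07 to 0.07 (6 genes, Cd5l at 0.44, Vsig4 at -0.49 and Marco at -0.34), endothelial markers from -0.23 to 0.04 (6 genes, Egfl7 at -0.71 and Tek at 0.33), and stellate cell markers from -0.39 to 0.01 (6 genes, Colec11 at -0.53). Bile duct markers ranged from -0.63 to 0.41 (5 genes) and lymphocyte markers from 0.15 to 0.43 (5 genes, Ighm at 0.57 and Cd79b at 0.45). Adrenal and gonadal markers ranged from -0.0016 to 0.35 (5 genes, Star at 0.43). Adipocyte markers ranged from -0.47 to 0.02 (6 genes, 3 of them with means below 0). Plin4, at -2.02, was the 1 adipocyte marker past the threshold, while Plin1 stood at 0.84 and Cidea at 0.47. Alb, Apoa1, Vsig4, Marco, Plin1 and Cidea are named after their values were seen. Turned, the markers named by rule had means between -0.51 for Ttr and 0.17 for Tek. The other named markers then stood at 0.83 for Alb, 0.36 for Apoa1, -0.42 for Vsig4, 0.14 for Marco, 0.64 for Plin1 and 0.11 for Cidea. Apart from Plin4, 0 markers passed the threshold. Their part in the receptors' values was not tested.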

How the data were processed

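Liver RNA was hybridised on 4 arrays read in 2 colours, and the 4 arrays formed 1 group of treated mutant against untreated wild type, with the mutant's number as array number. The deposited values were log2 ratios, 1 per probe and array, for 43379 probes. The submitters' processing notes name limma without a version. No source used here gives the background correction, normalization or direction of the ratio, and log base 2 is inferred from limma's usual output. Array medians lay between -0.01 and 0.01 and SDs between 0.66 and 0.90. Signal intensities were not used here, and the number of arrays limits the precision. The series' design text calls the replicates independent, but wild-type animals are shared, so the arrays are not fully independent.

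Probes were named through GEO's platform annotation, in which 33653 carried 1 symbol, 56 several and 9670 none. Log2 ratios of a gene's probes were averaged. All 19087 genes were tested with limma 3.58.1 in R 4.3.3 (intercept only, default eBayes, two-sided against 0, Benjamini-Hochberg over all genes, threshold 0.05), and 95% intervals come from the same fit. The test was also run on simulated independent arrays, without shared animals or dye effects, so that run says nothing about these features. The Entrez IDs of all 37 measured receptors matched the reference table. Means are given with the SD over arrays.

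Alternatives turned arrays 3 and 4, scaled or centred arrays, set a random block for the wild-type animal, used a dye coefficient, the median over probes, single probes, a robust prior or a subtracted spatial trend (running median over 11 x 11 spots, 85 columns), and left out each array. Receptors, gene lists and alternatives were chosen with earlier results of these data known. Values on every array were to be given for receptors with one sign throughout and a mean of at least 0.5 in size, with an unadjusted p under 0.05, or with probes that disagree. They are also given for other receptors, among them those whose sign changed with the dye, chosen after their values were seen. From each list, genes past the threshold (at most 4) or the 2 largest with one sign on all arrays are named, and the report says where a gene is named outside this rule. An earlier analysis had fixed a rule that called for turning arrays 3 and 4, and dropped it once the data were seen. The same orientation as deposited is kept here, so that choice was also made with results known, and the report gives the means with those arrays turned as well.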

Additional observations from a re-analysis of the deposited data

Results flagged for a closer look

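A single array lay well apart from the remaining 3 in 3 of the 37 receptors and in 5 of all 67 genes checked, judged by its gap over the whole spread. Chance alone marks about 1 in 20. In Nr4a3 array 1 was at 0.98, with the others from -0.59 to -0.48. Nr5a2 had -0.57 on array 1 and 0.02 to 0.05 on the others, and Rxrg had 0.35 on array 1 and -1.07 to -0.89 on the others. Array 1 was thus the distant one in all 3 receptors. Among the other named genes, Mttp had -3.04 on array 3, with the others from -0.87 to -0.52, and Colec11 had -0.26 on array 2, with the others from -0.64 to -0.61.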

How the results depend on the processing

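No receptor passed the adjusted threshold under any alternative run, except that 1, Nr1i3, passed with a random block for the wild-type animal. The consensus correlation of that block was negative, so the fit was not a stricter test. The 5 receptors below 0 on all arrays kept means below 0 under every alternative except turning arrays 3 and 4, where 1 of the 5 did. In the others, Nr1i3 ranged from -1.71 to -1.13 (adjusted p from 0.0406 to 0.782), Hnf4a from -0.76 to -0.50, Nr1i2 from -0.78 to -0.46, Ppara from -0.53 to -0.34 and Pparg from -0.63 to -0.39. Receptors at an unadjusted p under 0.05 numbered 8 with the random block (13% of all genes had such a p), 7 with the spatial trend subtracted (8.44%) and 2 to 6 without 1 array (4.85% to 7.5%). Ppara was no longer among them with the robust prior, with arrays scaled to the same SD, when Pparg was, or without any one array. Without array 2 or array 4, Nr1i3 was the only one of the 5 still among them, and without array 3 only Nr1i3 and Hnf4a were. One sign on all arrays held for 8 receptors with arrays 3 and 4 turned (17.4% of all genes), for 8 with the spatial trend subtracted (17.1%), and for 8 to 14 without 1 array (25.4% to 30.2%), when 3 signs have to match. With the median over probes it held for 5 receptors, but Rarb was among them in place of Pparg. The count of all genes past the threshold was 0 with arrays 3 and 4 turned, 30 with arrays scaled to the same SD, 30 with each probe tested on its own, 122 with the spatial trend subtracted, 194 with the random block and 0 to 34 without 1 array. For the genes of the target and coregulator lists, 8 passed as deposited, 0 with arrays 3 and 4 turned, 17 with the random block and 0 to 6 without 1 array. Leaving out an array also lowers the degrees of freedom. Turning arrays 3 and 4 moved the means of 11 receptors by more than their SD. The causes of the other changes were not tested. Signal over background was not used here, so no receptor can be called silent.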
